A study of Mus musculus with 6 samples.

Results

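The colony-stimulating factors and their receptors were followed in RNA sequencing libraries of mouse heart cells: the ligands Csf1, Il34, Csf2 and Csf3 and the receptor chains Csf1r, Csf2ra, Csf2rb and Csf3r. The 8 genes were chosen by symbol, not by their values, and all 8 were among the 17714 genes of the deposited table. Of the 8, 7 passed the filter on low counts and were tested, as were 13370 genes in all; Csf2 was below the filter. The libraries came from wild-type mice and carried the label of cardiac lymphatic endothelial cells at day 3, 3 after myocardial infarction (MI) and 3 after a sham operation. The labels give no strain, age or sex, no sorting step and no statement that each library came from its own animal, so the p-values measure the spread between these libraries, which may be technical. The protocol text allows either heart tissue or primary endothelial cells as the source and names a culture medium with serum.

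Colony-stimulating factors are secreted proteins that keep myeloid cells alive and drive their division and maturation. Csf1 (M-CSF) and Il34 are unrelated in sequence but bind the same receptor tyrosine kinase, Csf1r, on which monocytes and macrophages depend. Csf2 (GM-CSF) binds a heterodimer of a private alpha chain, Csf2ra, and the signalling beta chain Csf2rb, which is shared with the receptors of interleukins 3 and 5. Csf3 (G-CSF) binds the homodimeric receptor Csf3r and drives the production and release of neutrophils. After infarction the heart is entered by neutrophils and monocytes, which carry these receptors.

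The sham libraries held 3206732 to 3591473 estimated counts and the MI libraries 21154342 to 21689333, so 3 counts corresponded to 0.742 to 0.828 CPM (counts scaled to library size) in sham and 0.156 to 0.159 in MI. Depth differed with the operation, and its effect, or that of a batch along the same line, cannot be told apart from it. The libraries were mixtures: 15 macrophage and monocyte marker genes summed to 4272 to 4470 CPM in sham and 20772 to 24312 in MI, and 12 pan-endothelial genes to 9045 to 9203 and 2062 to 2171. The 8 lymphatic endothelial markers summed to 644 to 665 CPM in sham and 535 to 598 in MI, and Prox1, the transcription factor that defines this cell type, was at 7.12 CPM in sham and 1.26 in MI. Of those 8 markers 6 were lower and 2 higher in MI, against 36.9% and 36.4% of all genes tested. The median log2 fold change of the 8 was -2.23. The summed level was held up by the 2 that rose, Pdpn (4.93 to 202 CPM) and Nrp2 (257 to 302 CPM, a call lost under total-count scaling), while Lyve1 went from 214 to 12.5 CPM. In such bulk libraries, fewer cells of a type and less RNA per cell cannot be told apart.

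RefSeq promoter sequences are given here for 4 of the 8 genes, 2 ligands and 2 receptor chains, and not for the others. All 4 genes were higher in MI, by 1.61-fold for Csf1, from 0 counts for Csf2, and by 9.31-fold and 15.2-fold for Csf2ra and Csf3r. That rise does not set them apart: Csf1r, Csf2rb and Csf3 were also higher in MI and are not printed. Each window runs 5′ to 3′ from 250 bases before to 50 bases after an annotated transcript start (GRCm38.p6). Capitals mark matches, on both strands, to 4 motifs picked after the sequences had been read: the kappaB core GGACTTTCC, the PU.1 core GAGGAA, the cAMP response element TGACGTCA and the C/EBP site TTGCNNAA. The windows are chr3:107760420-107760719 (minus strand) for Csf1, chr11:54249850-54250149 (minus) for Csf2, chr19:61228369-61228668 (minus) for Csf2ra and chr4:126024409-126024708 (plus) for Csf3r.
Csf1: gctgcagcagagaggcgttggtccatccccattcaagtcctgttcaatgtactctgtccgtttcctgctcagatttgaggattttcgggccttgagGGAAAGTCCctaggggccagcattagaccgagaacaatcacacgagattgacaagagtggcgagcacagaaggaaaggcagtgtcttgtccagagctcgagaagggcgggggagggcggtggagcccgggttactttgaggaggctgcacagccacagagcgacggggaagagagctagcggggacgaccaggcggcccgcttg
Csf2: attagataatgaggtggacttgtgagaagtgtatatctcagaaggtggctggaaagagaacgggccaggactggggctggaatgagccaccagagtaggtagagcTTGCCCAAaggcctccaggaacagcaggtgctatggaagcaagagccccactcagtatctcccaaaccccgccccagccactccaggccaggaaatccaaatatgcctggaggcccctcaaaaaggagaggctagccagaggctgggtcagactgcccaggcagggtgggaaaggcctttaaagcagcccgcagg
Csf2ra: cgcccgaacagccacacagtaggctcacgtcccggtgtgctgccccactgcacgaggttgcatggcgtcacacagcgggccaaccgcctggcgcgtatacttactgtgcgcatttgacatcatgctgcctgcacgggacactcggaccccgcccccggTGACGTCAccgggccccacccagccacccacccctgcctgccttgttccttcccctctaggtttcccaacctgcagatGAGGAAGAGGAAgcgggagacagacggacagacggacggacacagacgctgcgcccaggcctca
Csf3r: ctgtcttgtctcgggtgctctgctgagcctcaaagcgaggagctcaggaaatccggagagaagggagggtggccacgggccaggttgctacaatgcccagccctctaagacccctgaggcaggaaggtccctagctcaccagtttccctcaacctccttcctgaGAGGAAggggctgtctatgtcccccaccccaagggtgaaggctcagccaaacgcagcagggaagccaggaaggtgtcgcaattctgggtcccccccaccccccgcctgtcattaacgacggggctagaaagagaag
The Csf1 window held 1 kappaB core, read on the strand opposite to the one printed, from base 97 to base 105 of the window; 0.344% of the 32851 promoter windows of this length held it. The Csf2ra window held 1 cAMP response element (1.79% of all windows) and 2 adjacent PU.1 cores (28.3%), and the Csf3r window 1 PU.1 core. The Csf2 window held 1 C/EBP site, a motif found in 10.8% of windows. No matches overlapped. These are matches of letters and show no binding.

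Of the 7 genes tested, 6 rose and 1 fell in MI in edgeR's quasi-likelihood test at a Benjamini-Hochberg adjusted p of 0.05 over all genes. Across all genes tested, 73.3% were called, 36.4% higher and 36.9% lower, so a call by itself does not set the family apart. The median log2 fold change (MI minus sham) was 3.22 over the 7 genes and -0.01 over all genes tested. In all 8 genes, Csf2 included, the 3 MI libraries did not overlap the 3 sham libraries in CPM, against 76.1% of genes tested. The receptors and Csf3 were higher in MI by 3.07-fold to 29.1-fold, Csf1 by 1.61-fold, and Il34 was lower by 2.51-fold.

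**Figure D1:**
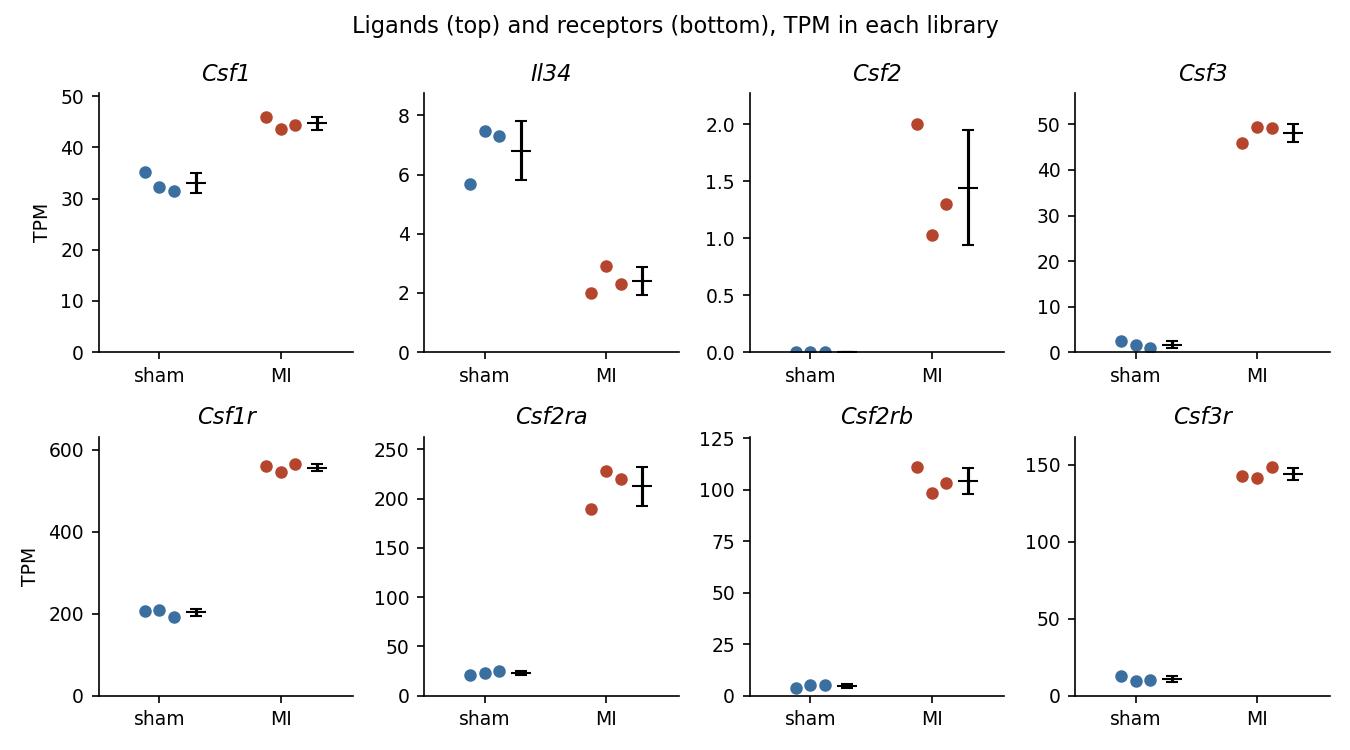
Transcript level (TPM, scaled per length and library) of the 4 ligands in the top row and the 4 receptor chains in the bottom row; each point is a library, and the bar beside it is the mean ± SD over 3 libraries. Sham and MI points do not overlap in any panel; Il34 is the panel with the higher values in sham, and the 3 sham values of Csf2 are listed at 0.

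Csf1 and Il34 moved in opposite directions. Csf1, on chromosome 3 from 107741048 to 107760469 (Entrez 12977), is made by endothelial, stromal and myeloid cells and maintains macrophages. Its level was 35.2, 32.2 and 31.5 TPM in the sham libraries and 46.1, 43.6 and 44.4 TPM in the MI libraries. The groups were close but separate, and the libraries of a group lay within a few TPM of each other. Its log2 fold change was 0.68 ± 0.09 (SE), from 66.98 ± 5.03 to 108 ± 3.26 CPM (SD, n = 3; edgeR adjusted p = 2.96e-05). With libraries scaled to their total counts instead of by TMM (trimmed mean of M-values), which lowered the median over all genes to -0.36, it was 0.33 with an adjusted p of 0.00544.

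Il34, on chromosome 8 from 110741829 to 110805949 (Entrez 76527), encodes the ligand best known for maintaining Langerhans cells and microglia. It stood at 5.67, 7.47 and 7.29 TPM in sham and at 2.01, 2.91 and 2.29 TPM in MI. Every MI library was below every sham library, on counts of 23 to 26 in sham and 37 to 62 in the deeper MI libraries. The log2 fold change was -1.33 ± 0.26 (SE), from 6.42 ± 0.644 to 2.54 ± 0.674 CPM (SD, n = 3; edgeR adjusted p = 0.000554). Of 8 markers of fibroblasts, which are among the known sources of Csf1, 4 rose and 4 fell in the same libraries. Among all genes tested, 36.4% were higher and 36.9% lower.

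Csf2, on chromosome 11 from 54247270 to 54249899 (Entrez 12981), had 0 counts in all 3 sham libraries and 17, 12 and 12 counts in MI, or 2.00, 1.03 and 1.30 TPM. The 41 MI counts have an exact 95% Poisson interval of 29.4 to 55.6, which covers counting error only. Set against 3 counts over the sham group (0.26 CPM), its pooled MI level of 0.719 CPM was at least 2.77-fold higher. Csf2 was not tested with the filter used here. With no filter on low counts it passed (edgeR adjusted p = 0.007). After random thinning of MI counts to sham depth, 5, 2 and 1 counts were left, so at the sham depth the transcript would be barely detectable in MI too.

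Csf3, also on chromosome 11, from 98700183 to 98703631 (Entrez 12985), had the largest estimated fold of the 7 genes tested, within its error of that of Csf2rb below. It was at 2.47, 1.48 and 0.88 TPM in sham, on 7, 5 and 3 counts. In MI it was at 45.9, 49.4 and 49.2 TPM, on 639, 781 and 751 counts. The sham libraries were all near the detection limit and the MI libraries close to each other. The log2 fold change was 4.86 ± 0.22 (SE), from 1.28 ± 0.452 to 38.1 ± 3.81 CPM (SD, n = 3; edgeR adjusted p = 2.06e-09). The neutrophil list moved with it, with 8 of 9 tested markers higher and none lower, against 36.4% and 36.9% of all genes tested. Its summed level was 26.5 to 33.2 CPM in sham and 440 to 581 in MI, where S100a8 (170 CPM) and S100a9 (243 CPM) were highest. Ltf was at 3.08 CPM in sham and 3.72 in MI (edgeR adjusted p = 0.428). Ly6g and Camp, a surface and a granule gene of neutrophils, were below the filter, at 0.281 and 0.352 CPM in MI. Ngp had 0 counts in sham. The part of these cells in the Csf3 result was not tested.

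Csf1r was the most abundant of the 8 transcripts per length in every library. This receptor tyrosine kinase gene lies on chromosome 18 from 61105572 to 61131139 (Entrez 12978). It stood at 206, 209.7 and 193 TPM in sham and at 559, 546 and 564 TPM in MI, so its groups were far apart and each was tight. The log2 fold change was 1.62 ± 0.08 (SE), from 411 ± 16.0 to 1261 ± 66.6 CPM (SD, n = 3; edgeR adjusted p = 2.47e-09). Its 3.07-fold rise was the smallest among the 4 receptor genes.

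Csf2ra, the ligand-binding alpha chain (chromosome 19 from 61217191 to 61228461, Entrez 12982), was at 20.8, 23.4 and 25.2 TPM in sham. In MI it was at 190, 228 and 219 TPM, with MI 1 the lowest of the 3. It rose 9.31-fold (log2 fold change 3.22 ± 0.12, SE; edgeR adjusted p = 4.16e-10). Csf2rb, the signalling beta chain (chromosome 15 from 78325800 to 78351001, Entrez 12983), went from 3.66, 5.18 and 5.04 TPM to 111, 98.2 and 103 TPM. Its rise was 25.2-fold (log2 fold change 4.65 ± 0.12, SE; edgeR adjusted p = 3.73e-11), so the beta chain moved further than the alpha chain.

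Csf2rb has a close paralog on the same chromosome in Csf2rb2 (from 78282507 to 78305721), a beta chain used by interleukin 3 in the mouse, which was not chosen as a family member but resembles it closely enough that reads could be divided between them. Of the 50-base windows of the longest protein-coding Csf2rb transcript in GENCODE M21 (GRCm38), 18.4% occurred unchanged in that of Csf2rb2, 6.96% of the 100-base windows and 3.47% of the 150-base windows. Csf2rb2 was at 4.57, 2.64 and 3.54 TPM in sham and 64.6, 61.0 and 60.5 TPM in MI. It rose 19.0-fold (log2 fold change 4.25 ± 0.14, SE; edgeR adjusted p = 1.56e-10). How the counting treated such reads was not given in the sources used here, so the split between both beta chains is uncertain.

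Csf3r, the receptor of Csf3 on neutrophils and some monocytes (chromosome 4 from 126023441 to 126044975, Entrez 12986), was at 12.7, 9.76 and 9.89 TPM in sham and at 143, 141 and 149 TPM in MI. The MI libraries differed little from each other, and all lay far above sham. It rose 15.2-fold, with a log2 fold change of 3.92 ± 0.11 (SE), from 16.5 ± 1.59 to 251 ± 11.8 CPM (SD, n = 3; edgeR adjusted p = 4.68e-11). RefSeq places long noncoding genes over the loci of Csf1, Csf2, Csf3, Csf3r, Csf1r and Il34. No strand setting was given, so reads of such transcripts could not be told from those of the named gene.

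The order of levels changed between the groups. In sham, TPM fell from Csf1r (203 ± 8.78) through Csf1 (32.99 ± 1.97), Csf2ra (23.1 ± 2.19), Csf3r (10.8 ± 1.68), Il34 (6.81 ± 0.991), Csf2rb (4.63 ± 0.84) and Csf3 (1.61 ± 0.803) to Csf2, listed at 0. No neighbours in that order overlapped. In MI the order was Csf1r (556 ± 9.11), Csf2ra (212 ± 19.98), Csf3r (144 ± 3.93), Csf2rb (104 ± 6.39), Csf3 (48.2 ± 1.94), Csf1 (44.7 ± 1.23), Il34 (2.40 ± 0.461) and Csf2 (1.44 ± 0.501; SD, n = 3 throughout). Csf3 and Csf1 overlapped in MI, with 45.9 TPM the lowest value of Csf3 and 46.1 the highest of Csf1. Il34 and Csf2 nearly met, at 2.01 and 2.00 TPM in MI 1. Csf1 was thus the most abundant ligand in sham, and in MI it shared that place with Csf3.

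Ratios of TPM within a library showed how ligands and receptors shifted against each other. Each of 7 log2 ratios separated the groups, with p = 0.1 in an exact two-sided permutation test, the smallest that 3 against 3 libraries can give, and an adjusted p of 0.1. Il34 per Csf1 was 0.161, 0.232 and 0.231 in sham and 0.0436, 0.0667 and 0.0516 in MI. The log2 ratio fell by 1.95, from -2.29 ± 0.30 to -4.23 ± 0.31 (SD, n = 3). Csf1 per Csf1r went from 0.163 ± 0.00881 to 0.0804 ± 0.00186, and Il34 per Csf1r from 0.0336 ± 0.0054 to 0.00433 ± 0.000896. Both ligands were thus lower relative to the receptor transcript in MI, although Csf1 itself was higher.

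For the other 2 ligand systems the receptor chains also shifted. Csf2ra per Csf2rb was 5.69, 4.51 and 4.996 in sham and 1.71, 2.32 and 2.13 in MI, so the alpha chain remained the more abundant per length but by a smaller margin. Csf3 per Csf3r went from 0.194, 0.152 and 0.089 to 0.322, 0.35 and 0.331; the sham values rest on 3 to 7 Csf3 counts. Csf3r per Csf1r went from 0.0532 ± 0.00785 to 0.259 ± 0.00427, and Csf2rb per Csf1r from 0.0229 ± 0.00447 to 0.187 ± 0.01 (SD, n = 3). The receptors of Csf2 and Csf3 thus gained on Csf1r in all 3 MI libraries. Csf2 per Csf2ra was 0.0105, 0.00452 and 0.00592 in MI and could not be compared with sham.

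**Figure D2:**
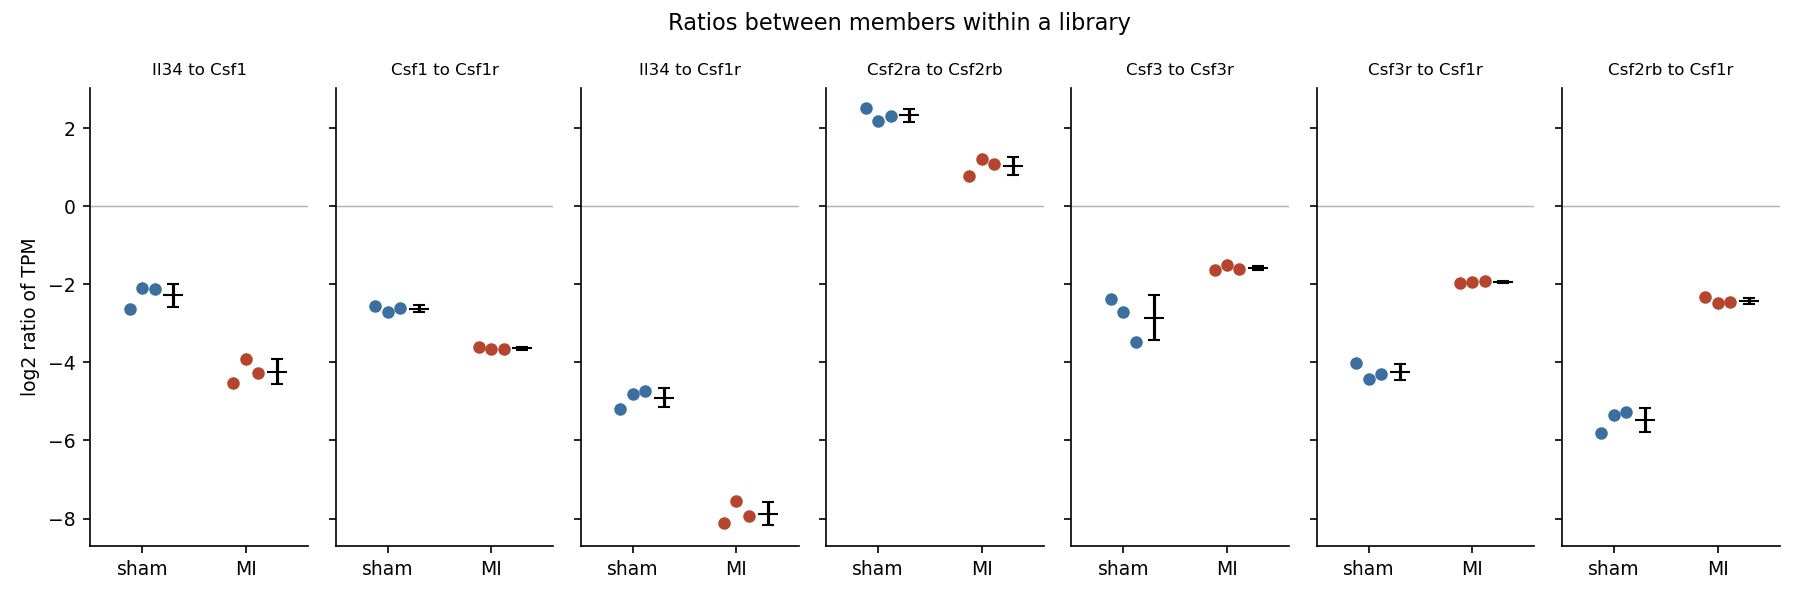
Log2 ratio of TPM between 2 genes of the same library, 1 panel per ratio, points for libraries and bars for the mean ± SD over 3 libraries. Every panel separates sham from MI; the difference runs from -2.96 for Il34 to Csf1r to 3.05 for Csf2rb to Csf1r.

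Levels were also set against marker genes of cells that could carry the transcripts, as the difference between log2(CPM + 0.5) of the gene and the mean of the list. Csf1r lost ground to the mean of the 15 macrophage and monocyte markers, all of which rose (median log2 fold change 2.95). The difference was 2.27, 2.26 and 2.25 in sham and 0.85, 0.88 and 0.90 in MI, a shift of -1.38. It did not lose ground to every marker. The log2 fold change of Csf1r (1.62) was above that of Mertk (1.03) and close to that of C1qa. The other markers had larger estimates, from C1qc (1.69) to Ly6c2 (6.45, from 0.784 CPM in sham). Csf2rb gained 1.61 on the same list, from -2.85 ± 0.28 to -1.24 ± 0.06 (SD, n = 3). Csf2ra kept pace with it, at -1.69, -1.61 and -1.50 in sham and -1.57, -1.29 and -1.38 in MI. These overlap, with a shift of 0.19 (exact permutation p = 0.2, adjusted p = 0.2).

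For Csf3r the difference from the 9 neutrophil markers was 2.81 ± 0.03 in sham and 3.57 ± 0.04 in MI, but the size of that shift is set by the added constant: it was 0.22 with 0.1 CPM added instead of 0.5 and 1.31 with 2 CPM added. Of these markers, Ngp had 0 counts in sham and Mmp8 had 1, so their sham values rest on the constant, and no shift of Csf3r against neutrophil markers is read from it. Csf1 gained 2.88 on the pan-endothelial list, which fell throughout (12 of 12, median -2.08), and 0.78 on the fibroblast list (median -0.28). Il34 gained 0.99 on the pan-endothelial list and shifted by -1.11 against the fibroblast list. All measures but that of Csf2ra separated the groups (exact permutation p = 0.1, adjusted p = 0.114 over 8 measures). That of Csf3r is included, but it is not read, because its size is set by the constant. Which cells carried each transcript was not tested.

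**Figure D3:**
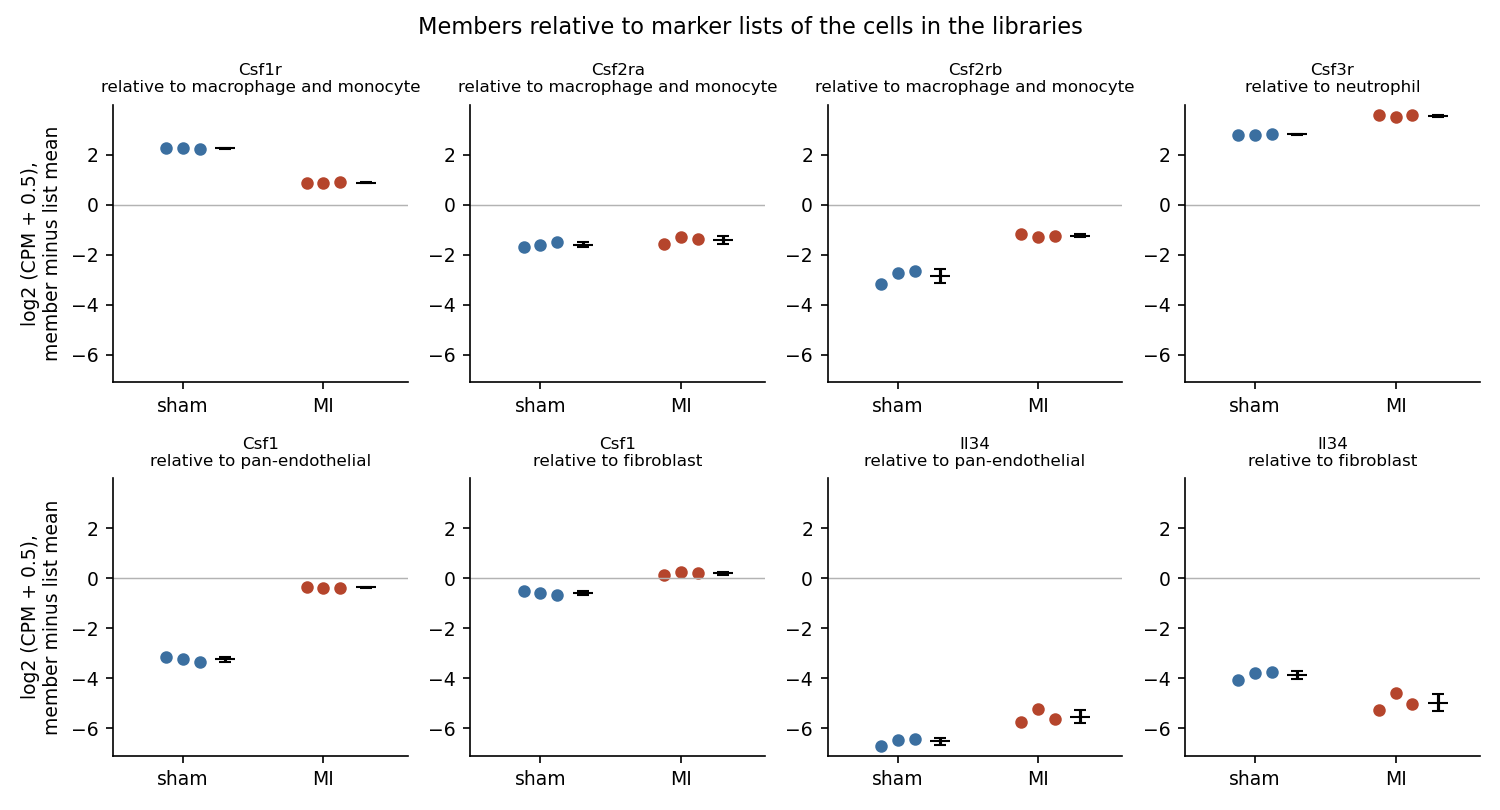
Difference between log2(CPM + 0.5) of a gene and the mean log2(CPM + 0.5) of a marker list, with points for libraries and bars for the mean ± SD over 3 libraries. Csf1r falls relative to the mean of the macrophage and monocyte markers (2.26 to 0.88), Csf2rb rises (-2.85 to -1.24), and the Csf2ra groups overlap.

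Other cells of the heart or blood that respond to these factors were also checked. For the counts that follow, 36.4% of all genes tested were higher and 36.9% lower in MI. Of 7 dendritic cell markers tested, 4 rose and 2 fell (median log2 fold change 2.73). Their summed level went the other way, from 134 to 167 CPM in sham to 97.7 to 108 in MI, carried by Zbtb46 (108.8 to 21.3 CPM), which endothelial cells also express. Mast cell, basophil and eosinophil markers summed to 23.6 to 33.1 CPM in sham and 37.6 to 41.5 in MI, with Prg2 at 0 counts in sham and Fcer1a at 0 in MI. The 2 tested markers of that list moved apart: Kit fell from 27.7 to 16.9 CPM and Siglecf rose from 0.168 to 21.9 CPM. T, B and NK cell markers summed to 8.48 to 12.9 and 14.4 to 17.1 CPM, with Cd3g and Ncr1 at 0 counts in sham and Cd3e at 0 in MI. All 8 mural and all 8 cardiomyocyte markers fell. The part of these cells in the results above was not tested.

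Relatives of the GM-CSF receptor that use the beta chain were few. Of 5 listed genes, 4 were in the table and 2 were tested, both higher (Csf2rb2, above, and Il3ra, the interleukin 3 receptor alpha chain). The share of all genes tested that were higher was 36.4%. Il3ra went from 23.9, 27.8 and 30.5 to 31.0, 40.7 and 39.2 TPM (1.56-fold; edgeR adjusted p = 0.0039), a call lost with libraries scaled to total counts (adjusted p = 0.124). Il5ra, the eosinophil receptor chain for interleukin 5, had at most 2 counts in a sham library and 7 to 17 in MI, and the cytokine gene Il5 had 0 counts in sham; neither was tested. Il3 was not analysed here.

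Genes that act around and below Csf1r mostly rose, with 16 higher, 1 lower and 1 not called of 18 tested (median log2 fold change 1.75), where 36.4% of all genes tested were higher and 36.9% lower. Vav1, an exchange factor of blood cells, rose 9.80-fold, from 25.2 ± 2.24 to 248 ± 11.0 CPM, and Plcg2, a phospholipase of myeloid and B cells, 8.31-fold. Tyrobp, the signalling adaptor DAP12, rose 5.84-fold, from 112 ± 5.55 to 653 ± 130.4 CPM. The phosphatases Inpp5d (SHIP1) and Ptpn6 (SHP-1), which restrain such signals, rose 5.60-fold and 7.21-fold, and Cbl, the ligase that targets activated Csf1r for degradation, 3.35-fold. Adam17, the protease that sheds Csf1 and Csf1r from the cell surface, rose 2.16-fold, and Sdc1, a syndecan that binds Il34, 1.94-fold. Fyn, a Src-family kinase, fell by 0.57 on the log2 scale, and the exchange factor gene Sos1 was at 31.7 ± 1.31 and 33.2 ± 5.35 CPM (edgeR adjusted p = 0.664). Ptprz1, another receptor for Il34, was below the filter.

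Kinases, STATs and targets used by the receptors of Csf2 and Csf3 showed 17 higher, 2 lower and 2 not called of 21 tested (median log2 fold change 0.78), against the same 36.4% and 36.9% of all genes. Syk, a kinase of immune receptors, rose 17.2-fold, from 44.0 ± 2.34 to 758 ± 10.9 CPM, and Pim1, a survival kinase induced by STAT5, 7.98-fold. Jak2, the kinase bound to the beta chain, rose 3.71-fold. Stat5a rose 6.81-fold, from 8.34 ± 1.23 to 56.7 ± 2.41 CPM, while Stat5b was at 60.3 ± 7.14 and 51.9 ± 0.925 CPM (edgeR adjusted p = 0.083). Among the feedback inhibitors, Socs3 rose 1.86-fold, Socs1 1.76-fold, Socs2 fell 3.53-fold, and Cish was at 26.8 ± 4.05 and 26.9 ± 2.03 CPM (edgeR adjusted p = 0.994). The cyclin gene Ccnd1 fell 2.42-fold. With libraries scaled to total counts 13 were higher and 4 lower; Jak1, Pim2, Bcl2l1 and Shc1 were then not called, and Stat5b and Cish were lower.

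Transcription factors known to drive the myeloid receptor genes showed 8 higher and 3 lower of 11 tested (median log2 fold change 1.76; 36.4% and 36.9% of all genes), or 7 and 3 with libraries scaled to total counts, where Ets2 was not called. Spi1 (PU.1), the myeloid master regulator, rose 9.40-fold, from 33.4, 26.7 and 29.5 to 236, 316 and 291 CPM. Cebpa, a factor of granulocyte and monocyte fate, rose 6.63-fold. Cebpd and Klf4, both also active in other cell types, fell 2.85-fold and 1.86-fold, as did Fli1, an ETS factor of endothelial and blood cells, 2.42-fold. Cebpe, Gfi1 and Myb, which act in granulocyte precursors or progenitors, were below the filter. The macrophage and monocyte markers, 15 of 15 higher, moved with these lists in the same libraries, and their part in the counts was not tested.

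**Figure D4:**
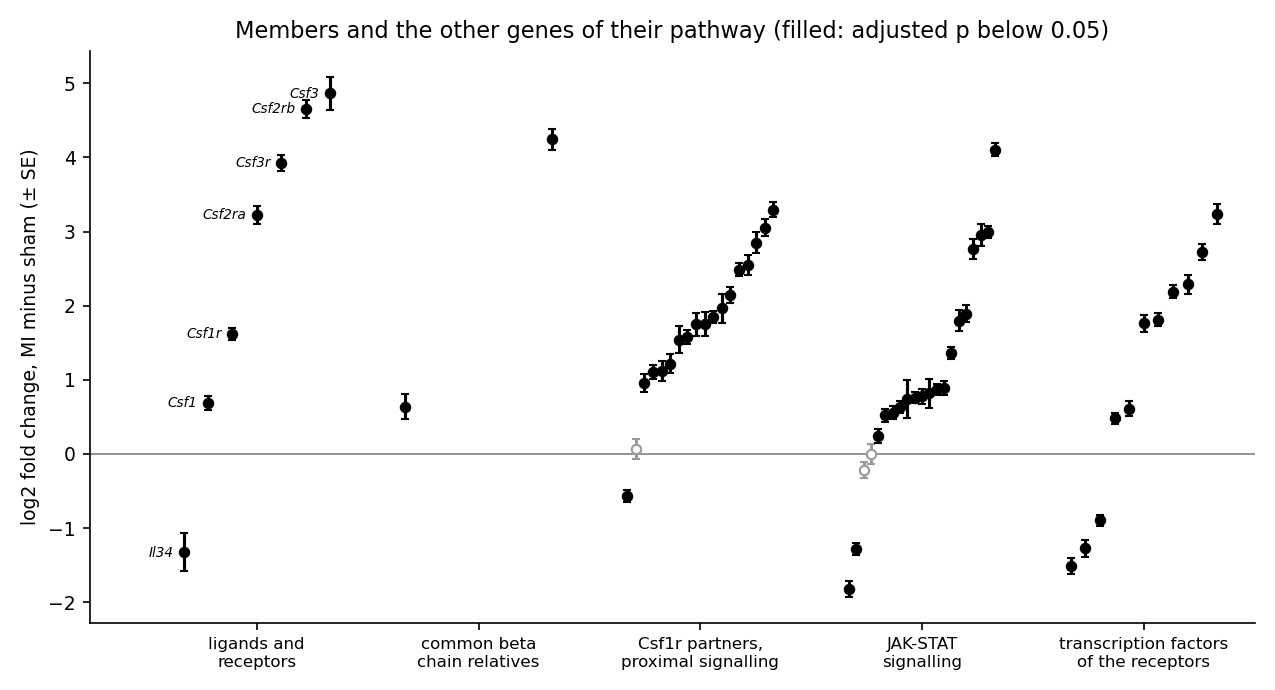
Log2 fold change (MI minus sham) ± SE of each tested ligand and receptor gene, named, and of the tested genes of the 4 pathway lists in order of size; open points did not pass an adjusted p of 0.05. The 7 named genes run from -1.33 (Il34) to 4.86 (Csf3), and the other lists have medians of 0.78 to 2.44.

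The genes most like each family member were those with the smallest root-mean-square difference of centred log2(CPM + 0.5) over the 6 libraries, among 10619 candidates with a mean of at least 5 CPM. Because the libraries form 2 groups, this measure mostly matches the size of the fold. Closest to Csf1r were Sdc3, Rrbp1 and Fcgr3 (0.0216 to 0.0468 log2 units), and closest to Csf2ra were Tcirg1, Plaur and Pgd (0.0165 to 0.0588). Csf3r was nearest to Fcgr1, Tnfrsf1b and Cdk18 (0.0416 to 0.0551), of which Fcgr1 is in the macrophage and monocyte list. Csf2rb was nearest to Rbm47, Hpse and Atp8b4 (0.0718 to 0.147), and genes near Csf3 included S100a9 and Fpr2 (0.0771 and 0.126), of which S100a9 is in the neutrophil list. Csf1 was nearest to Ddx24, Tmem63b and Ube2k (0.0195 to 0.0255) and Il34 to Mrpl53, Cbr2 and Nbdy (0.0693 to 0.0984).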

How the data were processed

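RNA from 6 libraries was sequenced on the BGISEQ-500 platform, per the labels and series design text, and reads were mapped by the authors to mouse genome GRCm38 (GRCm38.p6 per the submitters' processing notes). Estimated counts, unscaled, were deposited for each gene together with TPM and FPKM computed by the authors, per the file headers. The aligner, counting program, annotation and strand setting are not given in the sources used here. In the same table, 6 columns of scaled counts and 8 of group averages were not used.

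Estimated counts were rounded. In R 4.3.3, edgeR 4.0.16 applied filterByExpr (minimum count 10, here 0.808 CPM in 3 libraries), TMM scaling and the quasi-likelihood test with group as the only term, adjusted by Benjamini-Hochberg over 13370 genes and called below 0.05. The SE was taken as log2 fold change over the root of the F statistic. TPM served for levels between genes. The family, gene lists, marker lists and named-gene rule (all family members; from each list the largest called changes and the members that did not pass; the 3 most similar genes) were chosen with earlier results of these data known. Some genes the rule takes are not reported here. Genes named from the lists beyond that rule were picked after their values were seen.

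Libraries of a group differed beyond counting noise, so none was treated as a repeat deposit. Chi-square per gene was 1.55 to 1.79 between sham pairs and 4.28 to 37.3 between MI pairs. The pairs with MI 1 had 37.3 and 22.5, and MI 2 with MI 3 had 4.28. As the value grows with depth, sham and MI pairs cannot be compared by it. Alternatives were DESeq2 1.42.0, RLE or total-count scaling, no filter or a stricter one (1 CPM in a whole group and 100 counts), a replicate block, each library left out, MI libraries thinned to sham depth, and limma 3.58.1 on log2(TPM + 1). On simulated counts for 13370 genes, the test recovered 28 of 50 genes raised 1.5-fold, 48 of 50 raised 2-fold, 49 of 50 raised 4-fold and 43 of 50 lowered to 0.5 of their level, with 14 false calls among 182. Only those genes were changed, and all genes shared a common dispersion. In the data 73.3% of genes were called, so the simulation does not show how scaling or error rates behave there.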

Additional observations from a re-analysis of the deposited data

How the results depend on the processing

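Under 14 alternatives (DESeq2, RLE or total-count scaling, both filters, replicate block, 6 single libraries left out, thinning, limma on TPM), all 7 tested genes kept their direction and their call. The log2 fold change ran from 0.33 to 0.75 for Csf1, -1.68 to -1.15 for Il34, 1.27 to 1.68 for Csf1r, 2.87 to 3.35 for Csf2ra, 4.23 to 4.74 for Csf2rb, 4.28 to 5.16 for Csf3 and 3.57 to 4.02 for Csf3r. Genes called over the whole table ranged from 8596 to 10177; of those called, 34.9% were higher with total-count scaling, against 49.6%. With total-count scaling 1 of the common beta chain relatives was called instead of 2. No replicate pairing was evident: same-numbered libraries correlated in their deviations at -0.07, -0.04 and 0.00012, and the replicate block called 9635 genes.

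With 0.1 CPM added instead of 0.5, the shift of Csf1r relative to macrophage markers was -1.43 and that of Csf3r relative to neutrophil markers 0.22. With 2 CPM added they were -1.27 and 1.31, Csf1 relative to fibroblast markers 0.71 and Il34 relative to pan-endothelial markers 1.28. Total-count scaling put Csf3r relative to neutrophil markers at 0.69. The added constant raises low values most. Sham depth limits Csf2, Csf3 and Il34 most.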
